A study of Drosophila melanogaster with 31 samples.

Results

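Chromatin accessibility was compared between *Drosophila* embryos that lacked both the maternal and the zygotic supply of Grainy head and control embryos at stage 6, the onset of gastrulation. The comparison used 5 of the 31 samples of the series. These are the 3 *grhM-Z-* embryos (genotype grhMaternal- ; grhB37/grhB37) and the 2 *grhMwtZwt* embryos (genotype grhMaternal+ ; grhB37/+), each a single embryo with its own ATAC-seq library. The *grhB37* allele is a null allele, so the controls themselves carried 1 mutant copy. Mothers with germline clones of the *grhB37* null allele were made by heat-shock FLP-FRT recombination. Mutant embryos were recognised by missing green fluorescence together with PCR. Flies were reared at 25°C. The prefix of each peak name marks the embryo, and the embryos are called controls 1 and 2 and mutants 4, 5 and 6 after these prefixes.

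Grainy head (Grh) is a transcription factor that binds DNA as a dimer and is conserved from flies to mammals. It is known for driving the epidermal programme, including the genes of the cuticle, of cell junctions and of wound repair, and it can act as a pioneer factor, a protein that binds its sites in closed chromatin and helps to open them. In the early *Drosophila* embryo *grh* transcript loaded by the mother is present before the zygotic gene is expressed. ATAC-seq marks open chromatin by the insertion of the Tn5 transposase, so an accessible region appears as a peak of reads. The unit used below is the fold enrichment at the summit, the read pileup over the local background.

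Peaks of the 5 embryos merged into 56172 regions, of which 17523 (31.2%) were listed in all 5 embryos. Each region was searched for the Grh string, AACCGGTT or AACTGGTT in either orientation, in the 50 bp to each side of its strongest summit. The string was present in 413 (0.735%) of all 56172 regions and in 163 (0.930%) of the 17523 regions common to all embryos. The sequences of 7 such common regions that were lower in the mutants are given first. These 7 are among the 13 Grh-string regions singled out below by an unadjusted p under 0.05, and none was called. They are named by the nearest transcription start site and show the plus strand of dm6 around the summit, with the Grh string (in either orientation) in capitals. The window of *in* stops where its transcript begins.

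Hydr2, chr2L:3165474-3165574: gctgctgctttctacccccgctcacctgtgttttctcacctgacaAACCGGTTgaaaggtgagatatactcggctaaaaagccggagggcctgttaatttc
in, chr3L:20367126-20367197: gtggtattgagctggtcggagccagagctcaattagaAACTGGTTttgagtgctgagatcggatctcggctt
Oatp30B, chr2L:9508747-9508847: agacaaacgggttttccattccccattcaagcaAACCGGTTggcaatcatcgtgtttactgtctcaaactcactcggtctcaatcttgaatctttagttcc
CG32461, chr3L:22952915-22953015: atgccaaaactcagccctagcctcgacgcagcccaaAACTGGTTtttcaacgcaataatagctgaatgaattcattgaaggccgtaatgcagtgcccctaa
CG6330, chr3R:26952949-26953049: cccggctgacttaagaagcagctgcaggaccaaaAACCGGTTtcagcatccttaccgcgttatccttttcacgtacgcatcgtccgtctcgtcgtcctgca
CG8565, chrX:15840245-15840345: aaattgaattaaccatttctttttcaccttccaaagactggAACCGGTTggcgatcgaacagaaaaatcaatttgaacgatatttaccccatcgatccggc
Cpr35B, chr2L:14421371-14421471: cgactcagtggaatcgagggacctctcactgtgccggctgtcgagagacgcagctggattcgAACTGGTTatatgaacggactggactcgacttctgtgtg

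The next 3 regions also hold the string, and were listed in both controls and in none of the mutants.

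CG31787, chr2L:18282790-18282890: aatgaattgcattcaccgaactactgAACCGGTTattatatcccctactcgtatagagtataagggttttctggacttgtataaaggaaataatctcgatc
CG10005, chr3R:11976831-11976931: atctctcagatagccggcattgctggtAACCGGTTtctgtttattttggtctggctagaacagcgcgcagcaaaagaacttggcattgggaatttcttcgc
DPCoAC, chr3R:20555853-20555953: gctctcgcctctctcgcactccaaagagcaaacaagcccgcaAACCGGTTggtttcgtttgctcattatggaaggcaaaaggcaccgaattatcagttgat

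The embryos had similar numbers of peaks. Peaks numbered 34121 in control 1 and 30660 in control 2, against 36749, 32495 and 34554 in mutants 4, 5 and 6. The difference lay within the spread between embryos (exact two-sided permutation p = 0.4, adjusted p = 1.0 over 12 values tested per embryo). With 3 against 2 embryos there are 10 arrangements, and the smallest p is 0.1. The median background at the summits, which follows sequencing depth, was 3.90 and 3.23 reads in the controls and 4.76, 4.21 and 4.99 reads in the mutants. Background was therefore higher in each mutant than in each control, and its part in the differences below was not tested beyond the fit to the pileup. The number of reads per library is not given in the peak lists.

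The background on X divided the embryos in another way than the genotype. The background on X was 0.656 of that on the autosomes in control 1 and 0.636 in mutant 5, but between 1.01 and 1.04 in control 2 and mutants 4 and 6. Control 1 had 263 peaks on Y. Mutant 5 stood apart, since its low X background came with only 55 peaks on Y, fewer than the 58 to 89 of the 3 embryos with the higher X background. Of the strongest 5000 peaks, 78.8% to 82.3% were common to 2 embryos with the same X dose and 75.7% to 76.9% to the others. On the autosomes alone the control pair shared 80.3%, the 3 mutant pairs 79.2% to 82.1% and the 6 mixed pairs 78.6% to 80.8%. On the autosomes, embryos of 1 genotype thus shared no more than embryos of both, apart from the pair of mutants 4 and 6.

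The stage label was checked with regions that control embryos of the maternal experiment (*grhMwt*) gained or lost between stages 5 and 6. The 515 gained regions were listed at 99.4% in both controls and at 99.0%, 99.0% and 99.6% in mutants 4, 5 and 6. The 529 lost regions were listed at 55.0% and 44.4% in the controls and at 57.1%, 51.2% and 58.4% in the mutants. Being listed does not by itself mark stage 6, since the 6 stage 5 embryos of this experiment listed 53.4% to 83.3% of the gained and 81.9% to 88.7% of the lost regions. Among the strongest 15000 peaks of each embryo, the gained regions were found at 96.5% to 99.2% in the 5 stage 6 embryos and at 37.5% to 64.3% at stage 5. The lost regions were found there at 13.4% to 17.8% and at 63.3% to 84.1%. The 5 embryos thus lay apart from those of stage 5 on this measure, which was chosen after seeing the data. Gained regions were found at 99.2% and 98.8% in controls 1 and 2, and at 97.1%, 96.5% and 96.9% in mutants 4, 5 and 6. For the lost regions the shares were 14.4% and 13.4% against 15.5%, 17.8% and 17.4%. Each mutant thus lay nearer to the stage 5 values than each control on both sets. Whether the genotypes differ in age within stage 6 was not tested. All 14 germ layer genes examined, among them the mesodermal *sna* and *twi*, the endodermal *fkh* and *srp* and the ectodermal *D* and *SoxN*, had an accessible start-site region in every embryo.

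The first question was whether any region open in the controls had lost so much accessibility in the mutants that it changed its height beyond the spread between embryos. At the 17523 common regions no difference passed the test in limma, fitted to quantile-normalised log2 fold enrichment and called at a Benjamini-Hochberg adjusted p under 0.05 (0 regions, 0.0%, smallest adjusted p = 0.522). At an unadjusted p under 0.05, 487 regions (2.78%) were lower and 476 regions (2.72%) were higher in the mutants. The 12 alternative fits called 0 regions as well, with 580 to 1241 regions at an unadjusted p under 0.05. In 1819 regions (10.4%) all mutants lay below both controls, and in 1829 regions (10.4%) they lay above. A region had to be listed in every embryo to enter this test, so regions lost altogether are described separately below. These p-values measure the spread between single embryos.

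The precision of the comparison can be read from its intervals. The standard error of a difference had a median of 0.20 on the log2 scale. The 95% confidence interval reached a median of 0.44 to either side, and for 16671 regions (95.1%) the whole interval lay between a loss and a gain of 1 log2 unit. Only 6 regions were lower by more than 1 log2 unit and 9 were higher by more than that.

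**Figure D1:**
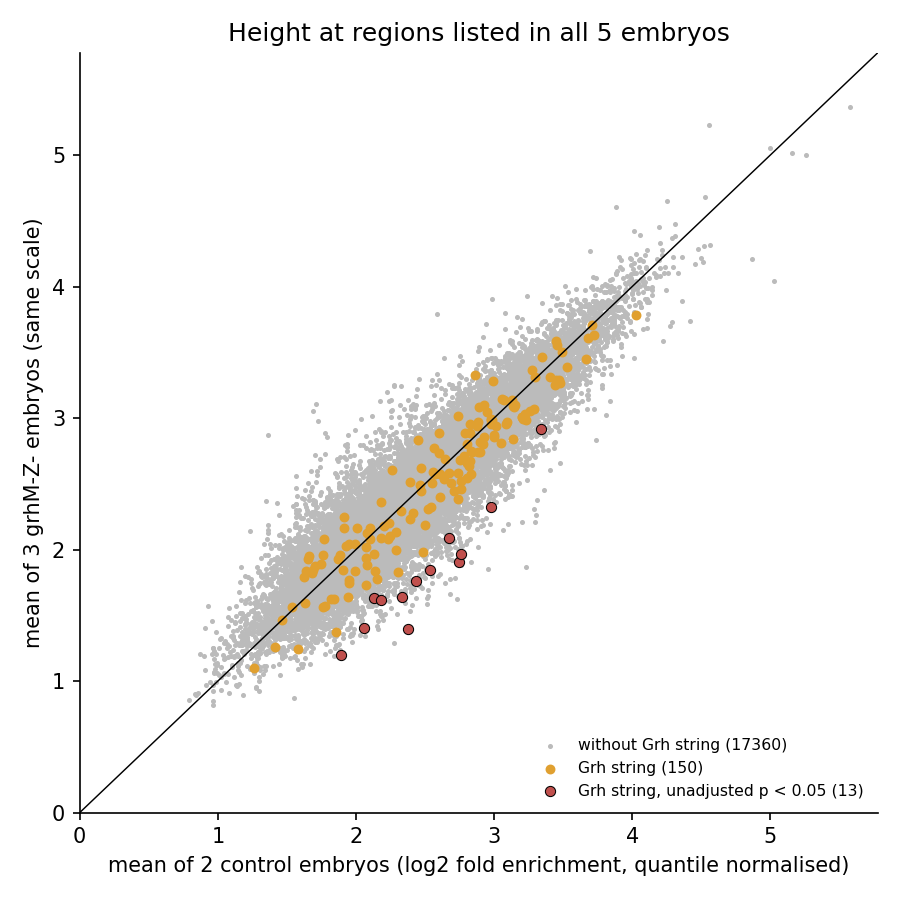
Each point is 1 of the 17523 regions listed in all 5 embryos, with the mean of the 2 controls on the x axis and of the 3 *grhM-Z-* embryos on the y axis (log2 fold enrichment, quantile normalised). The line marks equal height, and the 13 Grh-string regions with an unadjusted p under 0.05 (red) all lie below it.

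More of the regions holding the Grh string had lower than higher accessibility in the mutants, although none of them was called. Of the 163 regions, 106 (65.0%) were lower, against 50.1% of all regions, and their median difference was -0.090 on the log2 scale against -0.00064 for all regions. At an unadjusted p under 0.05, 13 of the 163 (7.98%) were lower, against 2.78% of all regions, and 0 were higher, against 2.72%. All mutants lay below both controls in 24 of them (14.7%, against 10.4% of all regions) and above both in 7 (4.29%). The smallest adjusted p among the 163 was 0.71 (limma).

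The same bases in reversed order gave a median on the other side of 0. The reversed strings TTGGCCAA or TTGGTCAA, searched in the same way on both strands, were present in 157 common regions (0.896%), against 1.04% of all 56172 regions, with a median difference of 0.021 and with 5 regions lower and 5 higher at an unadjusted p under 0.05. At the reversed string all mutants lay above both controls in 20 regions (12.7%) and below both in 12 (7.64%). Other factors of the early embryo gave medians on both sides of 0. The string of Zelda (CAGGTAG), the pioneer factor of the first zygotic transcription, was found in 509 regions (2.90%) with a median of 0.048, and that of GAGA factor (GAGAGAG) in 1556 regions (8.88%) with a median of 0.018. The string of Dichaete (ACAAAGG, 386 regions, 2.20%) gave 0.021 and that of Odd-paired (CAGCGGG, 313 regions, 1.79%) gave 0.034. Regions with the string of Dref (ATCGATA), a factor of housekeeping promoters, were lower like those of Grh, with a median of -0.055 in 1183 regions (6.75%). Of these, 732 (61.9%) were lower, a share close to that of the Grh-string regions. All mutants lay below both controls in 13.4% of the Dref regions and above in 5.92%, and at an unadjusted p under 0.05, 41 (3.47%) were lower and 19 (1.61%) were higher. Regions with the Zelda string leaned the other way. All mutants lay above both controls in 71 of them (13.9%) and below both in 24 (4.72%). At an unadjusted p under 0.05, 14 of the Zelda regions (2.75%) were higher and 3 (0.589%) were lower. Whether the Grh, Dref and Zelda regions differ was not tested.

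Taken per embryo, Grh-string regions stood above the remaining regions in each embryo, and by less in the mutants. The median log2 fold enrichment of the Grh-string regions minus that of the others was 0.21 and 0.19 in controls 1 and 2, and 0.065, 0.18 and 0.091 in mutants 4, 5 and 6. All 3 mutants lay below both controls, but mutant 5 did so by a margin of less than 0.01. Among the strongest 15000 peaks of each embryo the values were 0.15 and 0.15 in the controls and 0.11, 0.16 and 0.11 in the mutants, so that mutant 5 lay above both controls and the difference was -0.028. With all peaks, the difference of the means did not pass the exact two-sided permutation test (-0.084, p = 0.2, adjusted p = 1.0). Mutant 5 is the embryo whose low X background, like that of control 1, came with few peaks on Y. Without it the median difference of the 163 regions was -0.11, against -0.081 without mutant 4 and -0.063 without mutant 6.

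The Grh-string regions were also divided by position, without a test between the classes. For the 105 Grh-string regions within 1 kb of a start site the median difference was -0.060, with 4 regions lower and 0 higher at an unadjusted p under 0.05. The 58 Grh-string regions farther away had a median of -0.15, with 9 lower (15.5%) and 0 higher, and in 14 of them (24.1%) all mutants lay below both controls. Of all 8549 regions at this distance, 2.95% were lower at an unadjusted p under 0.05 and 9.76% had all mutants below both controls, and their median was 0.014. By chromosome, the median was -0.054 for the 57 regions on chromosome 2, -0.10 for the 75 on chromosome 3 and -0.096 for the 27 on X. At an unadjusted p under 0.05, 6 regions on chromosome 2 (10.5%), 6 on chromosome 3 (8.0%) and 1 on X (3.70%) were lower. The *grh* gene and the FRT site are on chromosome 2.

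The 10 Grh-string regions among those gained from stage 5 to stage 6 had the lowest median of the sets examined. The 515 gained regions covered 523 common regions, because several can overlap 1 peak. The median difference of the 10 was -0.43, 9 of 10 were lower and 5 were lower at an unadjusted p under 0.05. The 513 gained regions without the string had a median of -0.035, and the 153 Grh-string regions that were not gained had a median of -0.079. Of all 523 gained regions, 300 (57.4%) were lower. The lost set leaned the other way, with a median of 0.060 in 144 common regions, of which 57 (39.6%) were lower. At an unadjusted p under 0.05, 8 of the lost set were higher and 1 was lower (limma). Whether the gained and lost sets differ was not tested. The value for the 10 regions rests in part on control 1, without which the median was -0.25, and on weak regions, since it was -0.12 among those with a mean -log10 q of at least 10. Common regions that overlapped a peak of the strongest 5000 in *grhZwt* embryos at 11-12 h with no counterpart in *grhZ-* embryos of that age, called late in the plot of differences by set, numbered 673 and had a median of -0.0035 at stage 6. Only 7 of them held the string. At 11-12 h the *grhZ-* list held 4188 (23.9%) of all common regions and the *grhZwt* list 8523 (48.6%). How far the late set follows this general difference between the lists was not tested.

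**Figure D2:**
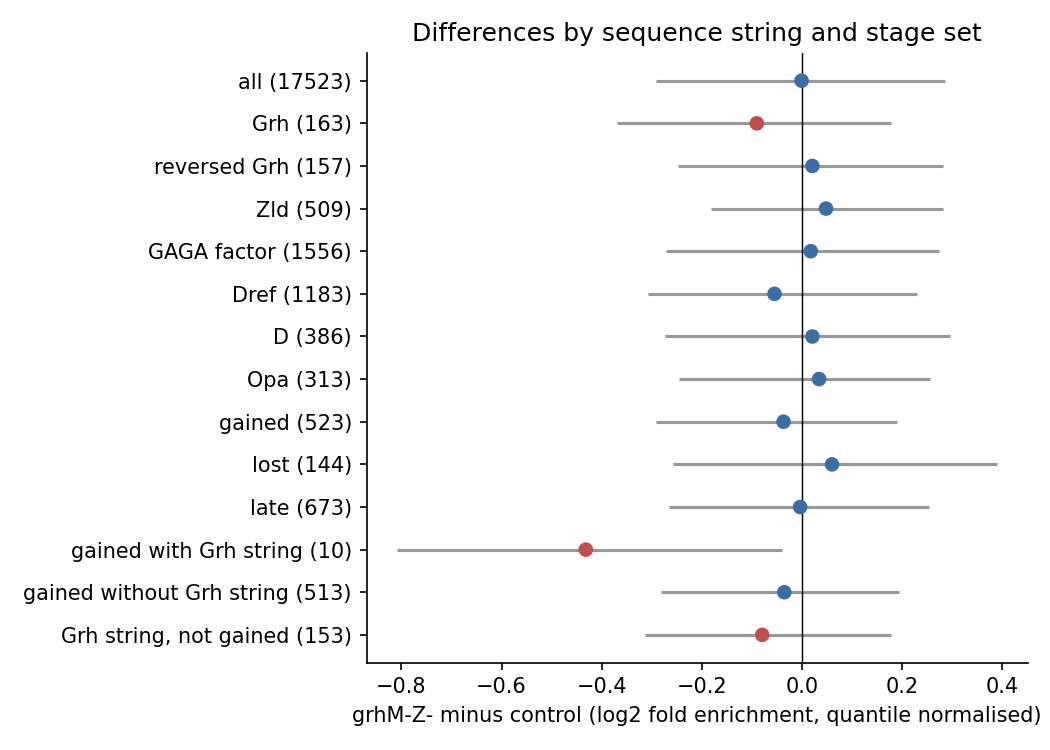
Differences between *grhM-Z-* and control embryos at the common regions, as the median (points) and the range from the 10th to the 90th percentile (lines), for regions with each sequence string and for regions gained or lost between stages 5 and 6 or called late (number of regions in brackets). The median of the 163 Grh-string regions is -0.090 and that of the 10 gained regions with the string is -0.43, while the reversed string lies at 0.021.

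The 13 Grh-string regions past an unadjusted p of 0.05 were singled out after their values were seen. The region with the smallest p lay in an intron of *Hydr2*, at chr2L:3165276-3165907. Its fold enrichment was 6.51 and 7.15 in the controls and 2.85, 4.67 and 3.77 in mutants 4, 5 and 6, a difference of -0.84 ± 0.23 (SE) on the log2 scale (limma, adjusted p = 0.71). The groups did not overlap, and the string lay within 5 bp of the summit, as printed above.

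The region with the largest difference covered the start site of *in* (*inturned*, a planar cell polarity gene that controls wing hair formation), at chr3L:20366985-20367413. Fold enrichment was 7.70 in control 1 and 3.59 in control 2, against 2.76, 2.49 and 2.54 in the mutants (difference -0.98 ± 0.29, limma, adjusted p = 0.72). The mutants were alike, but the controls differed from each other by more than control 2 differed from the mutants. The summit pileups, solved from the deposited values, were 33 and 9 reads in the controls and 11, 9 and 10 in the mutants. Control 2 thus matched the mutants in pileup, and its background was 1.79 reads against 3.35, 3.02 and 3.33.

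At the start site of *wnd* (*wallenda*, a kinase of axon growth and injury signalling), chr3L:19635585-19635887, both controls had the same height, 4.25 and 4.25, and the mutants had 2.49, 2.38 and 2.99. This difference of -0.65 ± 0.19 did not pass the test (limma, adjusted p = 0.71), although the groups did not overlap. The region nearest to *Oatp30B*, an organic anion transporter, lies in an intron of *CG33298* at chr2L:9508546-9509065. It gave 6.23 and 5.56 in the controls and 3.14, 3.32 and 4.30 in the mutants, without overlap. All of *in*, *wnd* and *Oatp30B* belong to the regions gained at stage 6, as do *CG6330* and *gprs*.

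Of the remaining regions, that of *CG6330* (chr3R:26952887-26953465) had 9.63 and 4.83 in the controls and 3.49, 4.41 and 3.72 in the mutants, so that again control 1 was high by itself. Its summit pileups were 51 and 15 reads against 15, 16 and 13. A region 2337 bp from *CG32461* (chr3L:22952590-22953095) had 6.95 and 6.03 against 3.96, 4.51 and 4.14. Near *Cpr35B*, which encodes a cuticle protein, a strong region at chr2L:14421148-14421536 had 8.74 and 11.9 against 6.95, 7.03 and 8.51. In these 3 regions the groups did not overlap in fold enrichment. An intron of *osy*, an ABC transporter needed for the lipid barrier of the cuticle, held the region nearest to *lncRNA:CR42765*, with 8.80 and 7.24 against 3.87, 4.31 and 7.23, where mutant 6 reached control 2. The other 5 regions, nearest to *chk*, *GluProRS*, *gprs*, *CG8565* and *Tpr2*, differed by -0.69, -0.67, -0.69, -0.57 and -0.50.

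**Figure D3:**
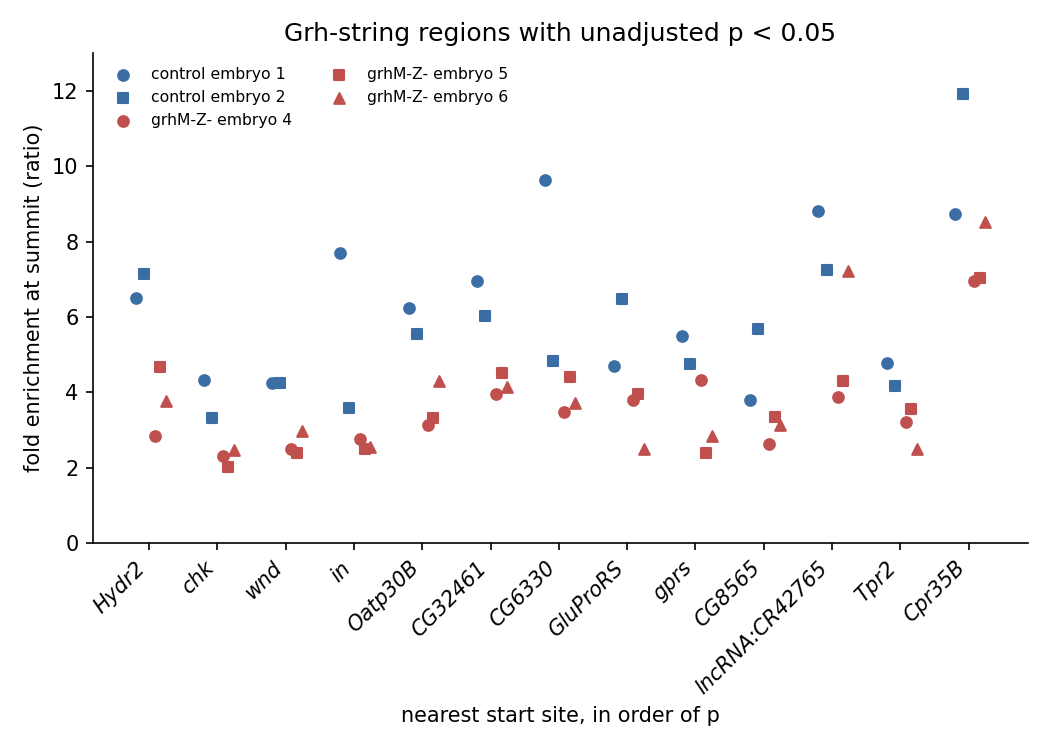
Fold enrichment at the summit (y axis, ratio) of the 13 Grh-string regions with an unadjusted p under 0.05, in each embryo and in order of p. Controls (blue) lie above the mutants (red) in most regions, control 1 is high by itself at *in* and *CG6330*, and mutant 6 reaches control 2 at *lncRNA:CR42765*.

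The number of such regions depended on single embryos. Without control 1, 7 Grh-string regions were lower and 3 were higher at an unadjusted p under 0.05, while all regions gave 2.47% lower and 3.46% higher. Without control 2 there were 11 lower and 1 higher, and without mutants 4, 5 or 6 there were 10 to 12 lower and 0 or 1 higher. Among the 113 Grh-string regions with a mean -log10 q of at least 10, 5 were lower and 0 were higher. In the fit to the solved pileup, 10 of the 163 were lower and 0 were higher.

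Other embryos of the series, which share no control with these 5, gave the same regions a second look. In the zygotic experiment at stage 6 (pooled lists of *grhZ-* and *grhZwt* embryos), 109 of the 163 Grh-string regions (66.9%) were lower in *grhZ-*, with a median of -0.067, against 50.1% and a median of -0.00046 for all 17392 regions listed in both. All 13 regions singled out above were lower there, with a median of -0.46, while 288 of the 475 regions (60.6%) that were lower at an unadjusted p under 0.05, with or without the string, were lower there. The reversed string gave 75 of 156 regions lower (48.1%), and the gained regions 283 of 523 (54.1%). At *in* the zygotic difference was -1.70, at *CG6330* -0.76, at *Hydr2* -0.75 and at *Oatp30B* -0.71. Each pooled list is 1 value per genotype, so these differences have no error of their own. The *grhZ-* embryos also carry *grhB37* on both copies of chromosome 2. Of the 13 regions, 6 are on chromosome 2, among them those of *Hydr2* and *Oatp30B*, 6 on chromosome 3 and 1 on X. The paper calls the losses it found in these mutants false positives, mostly on chromosome 2, and proposes mutations on that chromosome. For embryos without maternal and zygotic *grh* it reports limited changes, almost the same as after zygotic loss. It concludes that accessibility at gastrulation does not require Grh. Those results rest on read counts, which are not the unit used here. On chromosome 2, an effect of Grh and other sequence differences cannot be told apart.

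**Figure D4:**
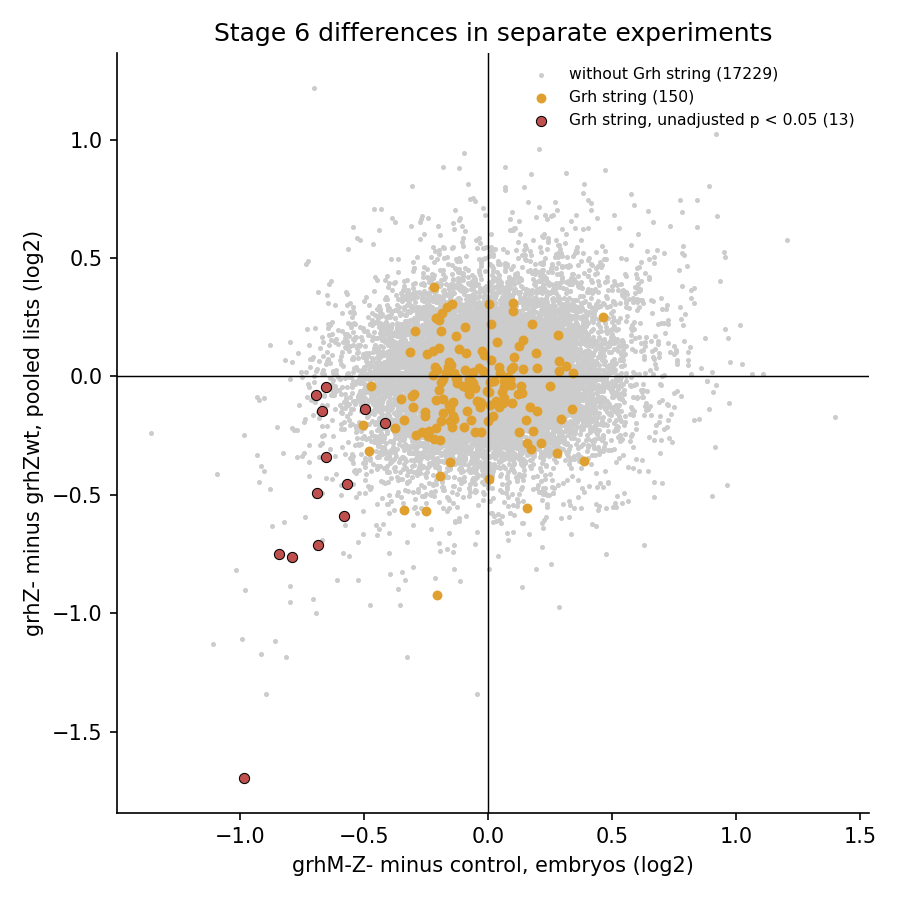
Differences at stage 6 in the embryos compared here (x axis) and in the pooled lists of the zygotic experiment (y axis), both log2 and quantile normalised, for regions listed in both. The 13 Grh-string regions (red) are all below 0 on the y axis, and *in* is the lowest, at -1.70.

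In the maternal experiment (*grhM-* and *grhMwt*) the median lay nearer to 0. There 90 of 158 Grh-string regions (57.0%) were lower with a median of -0.029, against 49.7% of all regions, and 9 of the 13 singled-out regions were lower. Gained regions, with or without the string, were lower in 328 of 523 (62.7%). At 11-12 h of development, where only 41 of the Grh-string regions were listed in both pooled lists, 26 (63.4%) were lower in *grhZ-* with a median of -0.15, against 48.9% of all regions. Regions with the Dref string gave like values at that age, with 156 of 230 (67.8%) lower and a median of -0.13, and the reversed Grh string gave 11 of 20 (55.0%) and -0.040. Whether these experiments differ from each other was not tested.

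At stage 5 the maternal and zygotic experiment has 3 embryos of each genotype, and 10218 regions were listed in all 11 embryos of both stages. There 96 Grh-string regions had a median stage 5 difference of -0.018, with 53 (55.2%) lower, against 48.2% of all regions. The reversed string gave 41 of 71 lower (57.7%) at stage 5, with a median of -0.080. Gained regions gave 180 of 245 lower (73.5%) at stage 5, with a median of -0.14. The difference between genotypes was not shown to change with stage at any region. The interaction of genotype and stage gave 0 calls (limma, smallest adjusted p = 0.97), with 490 regions (4.80%) at an unadjusted p under 0.05. Only 2 of the 13 singled-out regions, those of *CG32461* and *CG6330*, were listed in all 11 embryos, and their stage 5 differences were -0.098 and -0.077.

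The second question was which regions were listed in all embryos of one genotype and in none of the other. There were 555 such regions in the controls (0.988% of 56172) and 820 in the mutants (1.46%). Most were weak. Their median fold enrichment was 3.26 and 3.35, against 5.41 at the common regions, and only 15 control-only and 33 mutant-only regions reached a mean of 5. The counts followed the threshold, with 194 and 387 when only peaks with a -log10 q of at least 5 were used and 205 and 200 when the strongest 15000 peaks of each embryo were used. Leaving out control 1 raised them to 3503 and 2400, and leaving out control 2 to 4887 and 1683.

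The Grh string was found in 8 of the 555 control-only regions (1.44%) and in 2 of the 820 mutant-only regions (0.244%), against 0.735% of all regions. With a window of 100 bp the counts were 13 (2.34%) and 9 (1.10%), against 1.28%. The reversed strings were in 5 (0.901%) and 4 (0.488%) with the narrow window, against 1.04% of all regions. The 8 control-only regions were weak. The strongest lay on 2R near *lncRNA:CR44465*, with fold enrichments of 4.07 and 3.06 in the controls. At stage 5 it was listed in mutant 12 and in no control, and both zygotic lists held it at stage 6. Next came those near *CG31787* (3.66 and 3.20), *Obp99d* (3.48 and 2.74), *CG10005* (3.49 and 2.51) and *DPCoAC* (3.09 and 2.29). All 8 were listed in the *grhZwt* list at stage 6 and 6 of them in the *grhZ-* list. The 2 that were missing from the *grhZ-* list, near *CG31787* and in *CG10005*, are printed above, and both hold AACCGGTT. At stage 5 each of them was listed in 2 of 3 controls and in 0 of 3 mutants. In the maternal experiment at stage 6, however, the region near *CG31787* was in the *grhM-* but not the *grhMwt* list, and that in *CG10005* was in both. Another of the 8, nearest to *lncRNA:CR44993*, was listed in 0 controls and 2 mutants at stage 5. Zelda strings were found in 2 control-only regions (0.36%) and 14 mutant-only regions (1.71%), against 1.75% of all regions.

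The strongest control-only regions were on chromosome 2. Of the 15 that reached a mean fold enrichment of 5, 13 were on 2L or 2R, and of the 84 that reached 4, 50 (59.5%) were, while chromosome 2 held 35.9% of all regions. Set against the regions that both controls listed at this height, 13 of 3863 on chromosome 2, 2 of 4657 on chromosome 3 and 0 of 1960 on X were absent from all mutants. Of the 33 mutant-only regions that reached a mean of 5, 10 were on chromosome 2, and of the 150 that reached 4, 63 (42.0%) were. The cut at 5 was chosen after seeing the data. The *grhB37* allele and the FRT site used to make the germline clones are carried on chromosome 2, and the mutants carry that allele on both copies, the controls on 1. An effect of Grh and other sequence differences on that chromosome cannot be told apart at these regions.

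The 10 strongest control-only regions were nearest to *Maf1*, *sm*, *Tmtc2*, *CG5160*, *Vps51*, *gem*, *mtt*, *Rlip*, *CG42402* and *Ugt50B3*. None of them held the Grh string. The region on 2R at chr2R:1472237-1472338, 44542 bp from the start site of *Maf1* (a repressor of RNA polymerase III), had fold enrichments of 11.1 and 8.04 in the controls. It was listed in 2 of 3 controls and 0 of 3 mutants at stage 5 and in the *grhZwt* but not the *grhZ-* list at stage 6, while both zygotic lists held it at 11-12 h. An intron of *sm* (*smooth*, an RNA-binding protein), chr2R:19530906-19531245, had 6.94 and 7.70 and was listed in all 3 controls and 0 mutants at stage 5, but in both zygotic lists at stage 6. The region beside *Tmtc2* (chr2L:922215-922322) had 5.19 and 8.68, was listed in 2 of 3 controls and 0 of 3 mutants at stage 5, and was in both zygotic lists.

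Of all 555 control-only regions, 11 (1.98%) were listed in all 3 controls and no mutant at stage 5, and 3 (0.541%) in all mutants and no control. In the zygotic experiment 37 (6.67%) were in the control list alone and 26 (4.68%) in the mutant list alone. For the common regions these shares were 0.514% and 0.0913% at stage 5, and 0.148% and 0.211% in the zygotic experiment. In the maternal experiment 95 control-only regions (17.1%) were in the *grhMwt* list alone and 60 (10.8%) in the *grhM-* list alone, against 2.08% and 0.748% of the common regions. The common regions were stronger, with a median fold enrichment of 5.41 against 3.26, and had to be listed in every embryo. Shares over all regions were not taken, so the 2 sets are not compared like for like.

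Among the 820 mutant-only regions, 8 were listed in all controls and no mutant at stage 5 and 5 the other way round. In the zygotic experiment 12 of them (1.46%) were in the control list alone and 28 (3.41%) in the mutant list alone, and in the maternal experiment 129 (15.7%) and 89 (10.9%).

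The 10 strongest mutant-only regions were nearest to *CG31213*, *lncRNA:CR46075*, *ND-AGGG*, *lncRNA:CR46472*, *IntS3*, *nvd*, *Arr1*, *lncRNA:CR46079*, *Cpr97Ea* and *lncRNA:CR46212*, and 0 of them held the Grh string. The first, in an intron of *Hs6st* (a heparan sulfate sulfotransferase) at chr3R:19965182-19965567, had 9.87, 6.14 and 7.03 in mutants 4, 5 and 6. It was listed in 0 of the 6 stage 5 embryos and in both zygotic lists at stage 6. The region nearest to *lncRNA:CR46075* had 5.80, 5.13 and 11.5, and that nearest to *ND-AGGG* had 9.23, 5.70 and 6.26. The latter was listed in all 6 stage 5 embryos.

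Among the common regions, the 5 with the smallest p in each direction are given next although none was called. A region 4469 bp from *CG3092* (chr2R:23236959-23237182) had fold enrichments of 9.74 and 10.3 in the controls and 4.52, 4.59 and 4.60 in the mutants, a difference of -1.09 ± 0.17 (limma, adjusted p = 0.52). The embryos of each genotype were almost identical, and the summit pileups, solved from the deposited values, were 41 and 33 reads against 19, 17 and 19. An exon of *CG31792* (chr2L:18997992-18998438) had 7.18 and 8.76 against 3.40, 3.39 and 3.90 (difference -1.11 ± 0.20, limma, adjusted p = 0.53). The region beside *tRNA:Gly-TCC-2-1* (chr2R:21843108-21843298) had 10.2 and 10.6 against 5.07, 5.31 and 5.82. The other 2 regions with lower values were in introns of *PRY* on Y and of *pdm2*, a POU homeobox gene, with differences of -1.36 and -0.68. None of the 5 held the Grh string, and 4 of them were on chromosome 2, as were 3 of the 5 regions with higher values and 36.9% of the common regions.

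In the other direction, the smallest p belonged to a region in the pericentric end of 3L, 127191 bp from *CG42598* (chr3L:26498307-26498858), with 4.22 and 2.67 in the controls and 8.34, 8.96 and 8.27 in the mutants. The difference of 1.40 ± 0.22 (limma, adjusted p = 0.52) came with nearly equal summit pileups, 9 and 11 reads against 11, 13 and 10. The background was 1.37 and 3.49 reads in the controls and 0.44, 0.56 and 0.33 in the mutants. On the pileup alone the difference was -0.10, and it also turned at the regions nearest to *CR41519* on 2L (1.25 to -0.14) and to *ARY* on Y (1.51 to -0.091). Near *lncRNA:CR44908*, in an intron of *CG43861* (chr2L:19998953-19999183), fold enrichments were 5.16 and 4.40 against 8.72, 8.99 and 9.61, with 11 and 7 reads against 28, 22 and 24, and the difference on the pileup was 1.12. In an intron of *DIP-lambda* they were 7.43 and 8.73 against 12.4, 16.2 and 16.7, a difference of 0.92. The pileups there were 12 and 15 reads against 15, 19 and 20 and the background 0.75 and 0.83 against 0.29, 0.23 and 0.26 reads, and on the pileup the difference was 0.063.

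The *grh* gene itself spans chr2R:17801132-17842820. Of the 16 regions over it, 11 were listed in all 5 embryos, of which 6 were lower and 5 higher in the mutants, with differences from -0.45 to 0.22 and a median of -0.026. None passed the test (limma, smallest adjusted p = 0.89). Of the regions that reach within 1 kb of a *grh* start site, the one with the highest -log10 q had 8.44 and 7.69 in the controls and 9.02, 9.63 and 8.17 in the mutants. Another of them, at chr2R:17813885-17814207, had higher fold enrichments of 11.7 and 9.49 against 10.1, 10.01 and 9.62 (difference -0.047). The groups overlapped at both. Peak heights over the gene do not check the genotype labels.

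Genes of the epidermal barrier, known Grh targets at later stages, were examined by their strongest region within 1 kb of a start site. No region so chosen held the Grh string near its strongest summit, so Grh-string sites of these genes were not tested here. Of the 16 genes, 11 had a region in all 5 embryos, 0 were called, 3 were lower and 8 were higher, with a median difference of 0.067 against -0.00064 for all regions. The chitin synthase gene *kkv* had one of the strongest regions, with 14.2 and 12.6 in the controls and 11.4, 16.7 and 12.0 in the mutants. The septate junction genes *Fas3*, *cora*, *Nrx-IV* and *sinu* differed by 0.10, 0.075, 0.12 and -0.053, and the adherens junction gene *shg* (E-cadherin) by 0.067. The enzyme genes *Ddc*, *ple*, *Mmp1* and *verm* were not listed in all embryos, with *Ddc* and *Mmp1* listed in 0, *ple* in mutant 4 only and *verm* in mutants 4 and 6. The receptor kinase gene *stit* was listed in all but control 1.

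Genes with early Grh sites known from older work were not called either. Their chosen start-site regions also lacked the Grh string near the strongest summit. Whether these regions cover the early Grh sites was not tested. The regions of *Ubx*, *ftz*, *tll*, *dpp*, *en* and *PCNA* were listed in all embryos, with differences between -0.091 and 0.15, a median of 0.015 and 0 calls. At *tll*, the terminal gap gene whose repression involves Grh, the fold enrichment was 7.71 and 7.40 in the controls and 6.16, 7.69 and 7.04 in the mutants. At *dpp*, the dorsal BMP ligand, it was 4.75 and 5.22 against 4.38, 5.33 and 4.06. At both genes the groups overlapped.

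Of 11 genes named at loci of the study, 8 had a region in all embryos and 0 were called. The homeotic gene *pb* had the lowest value, with 8.81 and 10.4 in the controls and 6.79, 7.79 and 6.35 in the mutants (difference -0.43 ± 0.16, 95% interval -0.79 to -0.073, limma, adjusted p = 0.84). The groups did not overlap there. Its neighbours in the complex, *zen* and *zen2*, differed by 0.23 and 0.41. The homeobox genes *lbl* and *lbe* differed by -0.20 and -0.14, *D* by 0.11, *nan* by 0.032 and *ash2* by -0.037. At *lbl*, whose promoter holds the Grh site that the paper mutated, fold enrichment was 4.66 and 5.04 against 4.29, 4.12 and 3.89, without overlap. The chosen *lbl* region lacked the Grh string near its strongest summit, and whether it covers that site was not tested. The genes *saturn* and *bcd* had no listed region in any embryo, and *slo* had one in control 1 and mutant 6.

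Segmentation genes had medians close to 0. The 6 gap genes had a median of -0.021, the 9 pair-rule genes -0.012 and the 6 segment polarity genes 0.081, all with 0 calls. The highest among them was the gap gene *Kr*, with 8.43 and 9.99 in the controls and 9.95, 12.2 and 10.4 in the mutants (difference 0.26 ± 0.15). The lowest was the pair-rule gene *prd*, with 6.35 and 6.35 against 5.54, 6.10 and 5.03 (difference -0.16 ± 0.18).

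Genes that pattern the dorsoventral axis and drive gastrulation gave wider ranges. The 14 listed dorsoventral genes lay between -0.23 at *Doc2* and 0.39 at *sog*, the BMP antagonist of the neurogenic ectoderm, with a median of -0.043. At *sog*, on X, the values were 6.43 and 9.88 in the controls and 8.93, 12.2 and 9.83 in the mutants. Of the 7 gastrulation genes, *T48* and *cta*, both of the apical constriction pathway, were lowest with differences of -0.29 and -0.30, and the mesodermal *sna* and *twi* were at 0.11 and 0.042. The 3 listed cellularization genes were all lower, most at *Sry-alpha*, with 9.0 and 6.97 in the controls and 5.18, 6.73 and 5.60 in the mutants (difference -0.43 ± 0.20, limma, adjusted p = 0.89).

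Genes of pioneer and chromatin factors and housekeeping genes served for comparison. The 7 factor genes had a median of -0.012, with *zld* at -0.051, *Trl* (GAGA factor) at -0.0036, *Clamp* at -0.017 and *opa* at -0.012. The 5 listed housekeeping genes ranged from -0.26 at *eEF1alpha1* to 0.26 at *alphaTub84B*. The epidermal barrier genes lay inside this range.

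**Figure D5:**
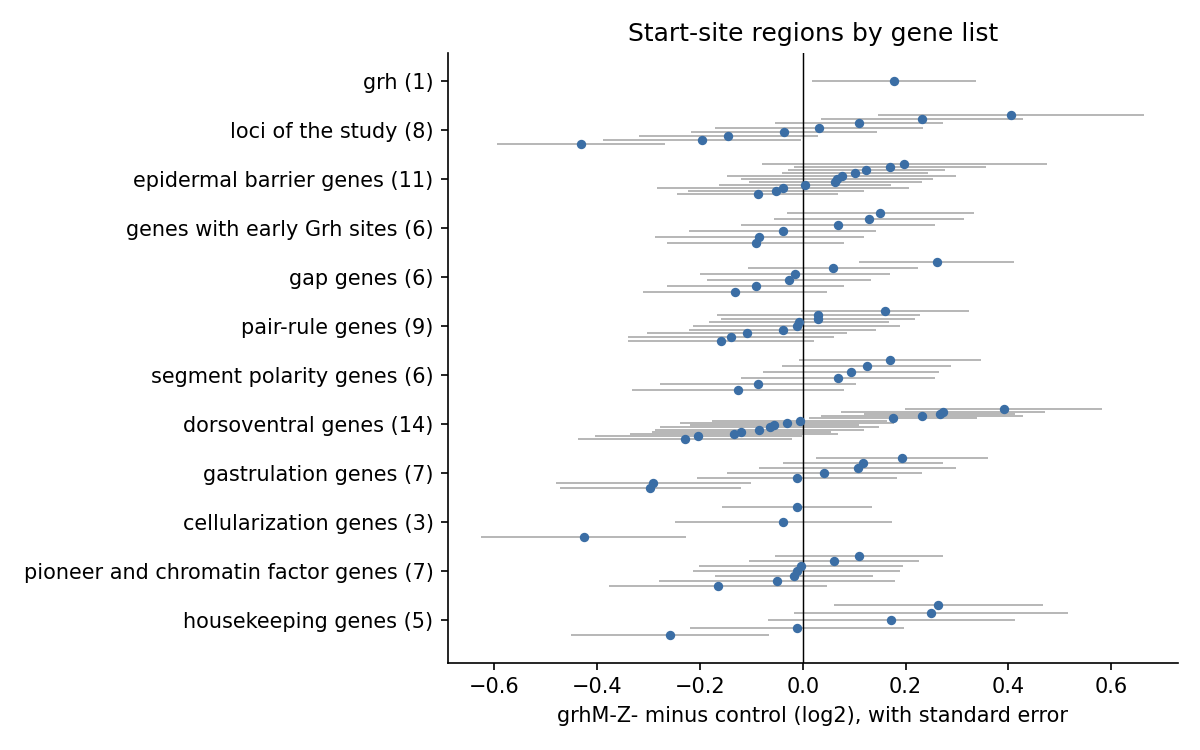
Differences between *grhM-Z-* and control embryos (log2 fold enrichment, quantile normalised) at the strongest start-site region of each listed gene, as points with the standard error, by gene list (number of genes listed in all 5 embryos in brackets). 0 of the genes were called, and the values lie between -0.43 (*pb* and *Sry-alpha*) and 0.41 (*zen2*).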

How the data were processed

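Accessibility was measured by ATAC-seq in single stage 6 embryos. The authors' reads were paired, 150 bp each, trimmed with Trimmomatic 0.36 and aligned to dm6 by Bowtie 2. Only uniquely placed nuclear fragments of up to 101 bp were kept, and MACS2 called the peaks of each embryo at a q-value of 0.05. For every summit the deposited lists hold a fold enrichment (the ratio of pileup to local background), its −log10 p and its −log10 q. Read counts were not used here, and depth is known only through the background.

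Summits of 1 peak were joined and peaks overlapping by 1 bp merged. At regions listed in all 5 embryos, log2 fold enrichment of the strongest summit was quantile normalised and fitted with limma 3.58.1 (R 4.3.3, trend, no pseudocount), with Benjamini-Hochberg adjustment and 0.05 as the threshold. The authors' methods used DESeq2 on reads. The interaction with stage used 11 embryos. The fit was tested on simulated data. Pileup and background were solved from the fold enrichment and −log10 p, reading the latter as a Poisson tail, which returned the deposited value within 0.01 for at least 96.6% of summits. Values per embryo were compared by exact permutation. Pooled lists of other experiments were quantile normalised in pairs.

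Gained regions were those among the strongest 5000 peaks of *grhMwt* at stage 6 without overlap in the strongest 15000 at stage 5, and lost regions the reverse. Start sites came from Ensembl release 115 and sequences from the RefSeq copy of Release 6 (dm6). Named regions were the 5 with the smallest p in each direction, as none was called, the 10 strongest of each genotype and the region with the highest −log10 q within 1 kb of listed genes (*h*, *mist* and *stit* under their current symbols). The 13 Grh-string regions were added after their values were seen. Members and lists were chosen with earlier results of these data known. Alternatives were other normalisations, the solved pileup, other filters and windows, no X and Y, and leaving out each embryo. The *grhM-* list of stage 5 was not used.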

Additional observations from a re-analysis of the deposited data

How the results depend on the processing

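The 12 alternative fits and both versions of the interaction gave 0 calls, as in the fit reported. No paired analysis was possible because the peak names carry no replicate number of the labels. The number of regions listed in 1 genotype alone moved most. With a -log10 q of at least 5 there were 194 control-only and 387 mutant-only regions, and with the strongest 15000 peaks 205 and 200. Leaving out 1 embryo gave 857 to 4887 control-only and 1607 to 2400 mutant-only regions, since fewer embryos have to share or lack a region.

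The median difference of the 163 Grh-string regions stayed between -0.063 and -0.11 when 1 embryo was left out, was -0.068 with a window of 100 bp, and was 0.021 for the reversed string, an alternative chosen after seeing the data. For the gained regions with the string it was -0.49 on the solved pileup, -0.67 for regions listed in at least 2 embryos of each genotype, -0.12 with a mean -log10 q of at least 10, -0.21 in windows around the summit, and -0.25 to -0.54 when 1 embryo was left out.

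Of the values for the 10 named regions, 106 of 109 kept their direction. The 3 that turned, all on the solved pileup, were *CG42598* (-0.10), *CR41519* (-0.14) and *ARY* (-0.091). Among the strongest 15000 peaks of each embryo, 6 differences per embryo changed sign. They were the share of peaks in percent on 2R (-0.17), on 3L (-0.29), on 3R (-0.069) and on 4 (0.0033), the median on X minus chromosome 3 (-0.00057) and the gained minus lost regions (0.095). The main values of these were also within the spread between embryos, and the cause of the changes was not tested.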

Other observations

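Some values lie outside the comparisons above. The single X dose seen in control 1 and mutant 5 also appeared at stage 5, where control 9 and mutants 11 and 12 had an X background of 0.595, 0.618 and 0.673 of the autosomes, with 324, 387 and 454 peaks on Y. Mutant 5, with 55 peaks on Y, was the only one of these 5 embryos with a low X background and few peaks on Y.

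The region at the start site of *in* had the largest zygotic difference of the 13 Grh-string regions at stage 6 (-1.70). At 11-12 h, where *in*, *wnd* and *Oatp30B* were the 3 of them listed in both genotypes, it was again lowest at *in* (-0.74), against -0.17 at *Oatp30B* and -0.070 at *wnd*. The value at *in* was smaller in the maternal experiment (-0.19). These lists have 1 value per genotype and no error.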
